A study of Mus musculus with 12 samples.

Results

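The 42 genes described here encode antiviral effector proteins induced by interferon. They were taken from a named list that leaves out the Ifit, Oas, Irf and Isg15 families and the interferon-gamma-induced GTPases. All 42 were found by gene identifier among the 56884 genes of the count tables, and all 42 passed the filter on low counts, with at least 253 counts in every library. RNA was sequenced in bulk from mouse tumours formed by TS/A, a mammary carcinoma cell line, mixed with cancer-associated fibroblasts (CAF), all labelled wild type. The 12 libraries made 4 groups of 3. RT_FAP41BBL tumours were given radiotherapy and muFAP-4-1BBL, RT tumours radiotherapy alone, FAP41BBL tumours muFAP-4-1BBL alone, and control tumours no active treatment. The agent muFAP-4-1BBL is an agonist of 4-1BB, a costimulatory receptor of T cells, and is directed to fibroblast activation protein on activated fibroblasts. The radiation dose, the agent's dose, the time of harvest and the host strain are not given in the sources used here, and the labels do not tie libraries to separate animals, so the spread behind each p-value is that between these libraries and could be technical.

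Interferons of type I signal through a shared receptor to a transcription factor complex that contains IRF9 and binds the interferon-stimulated response element (ISRE) in the promoters of its target genes. Interferon-gamma signals through its own receptor, and its target genes carry the gamma-activated site (GAS). The proteins made in response act at each step of a viral life cycle: they block entry, tether particles, edit or degrade RNA, halt translation and alter nucleotide pools. The same genes are known to be switched on in many irradiated tumours, where sensors of DNA in the cytosol can start interferon production.

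Library totals lay between 34076477 and 42067481 counts. Of the markers of the labelled cell types, Col1a1, the fibroblast collagen gene, averaged 2639 ± 126 CPM (counts scaled to a common library size by TMM) in RT_FAP41BBL, 2548 ± 517 CPM in RT, 2467 ± 779 CPM in FAP41BBL and 2820.1 ± 285 CPM in control, and the epithelial keratin gene Krt8 averaged between 253 and 345 CPM. Of the other epithelial markers 3 were low, with group means of 0.402 to 4.23 CPM for Epcam, 3.49 to 8.34 CPM for Cdh1 and 13.1 to 23.8 CPM for Krt19, as was Fap, which encodes the agent's target, at 7.68 to 14.1 CPM. RT libraries stood apart in skeletal muscle transcripts, with 12 muscle markers summing to between 5208 and 11651 CPM, against 414 to 840.0 CPM in RT_FAP41BBL, 62.7 to 1840 CPM in FAP41BBL and 49.95 to 550.2 CPM in control. RT_FAP41BBL replicate 2 stood apart in the genes described here. It was the highest of its group in 40 of the 42, against 38% of all 17757 genes tested. FAP41BBL replicate 2 was the highest of its group in 33 of 42, against 31.9% of all genes.

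Radiotherapy, alone or with the agonist, went with higher levels of most of these genes, and the agonist alone did not change any of them past the test. Together the 42 genes took 0.932%, 1.18% and 0.830% of all counts in RT_FAP41BBL libraries and 0.851%, 0.848% and 0.907% in RT libraries. They took 0.527%, 0.683% and 0.556% in FAP41BBL libraries and 0.497%, 0.485% and 0.555% in control libraries. Each library that had radiotherapy stood above each library that had none. Of the 42 group means, the highest was in RT_FAP41BBL for 28 genes, in RT for 12, and in FAP41BBL and in control for 1 each, while the lowest was in control for 39.

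**Figure D1:**
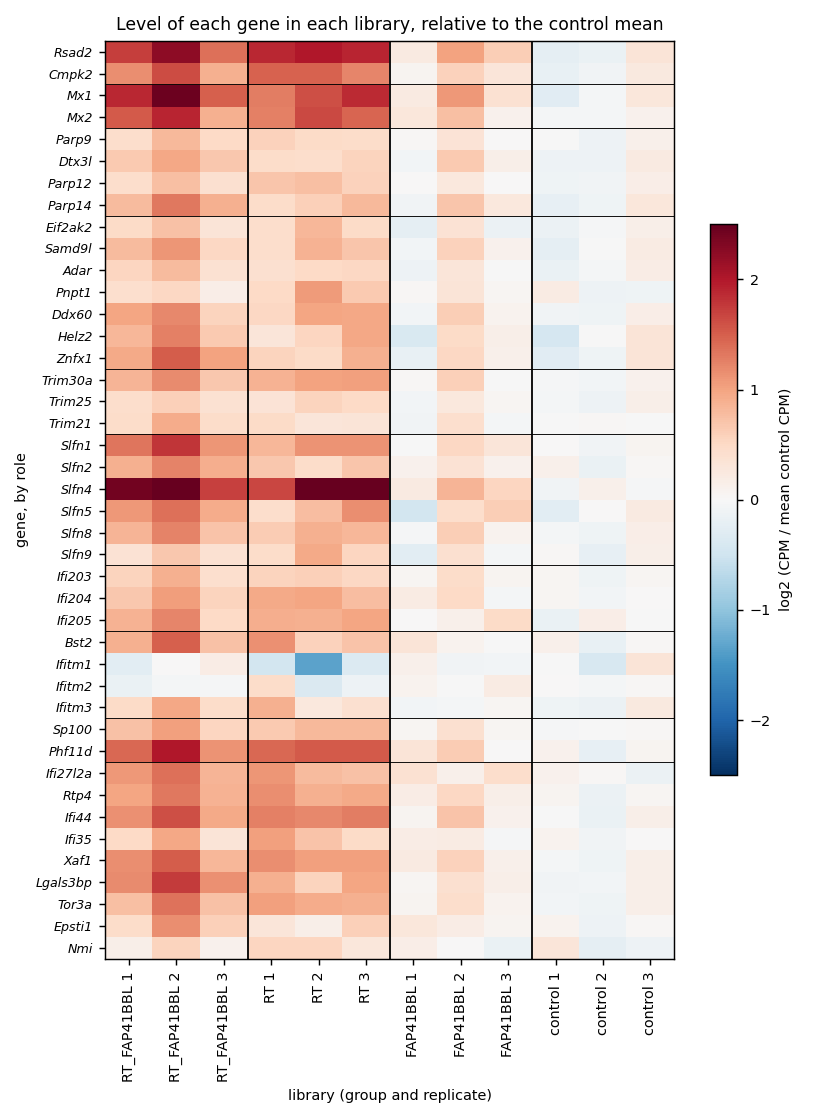
Level of each gene in each library as log2 of its CPM over the mean control CPM, with genes in rows by role and libraries in columns by group. The colour scale saturates at its ends. The 6 columns of RT_FAP41BBL and RT are red for nearly all genes, RT_FAP41BBL replicate 2 is the darkest of its group in 40 of 42 rows, and Ifitm1 and Ifitm2 stay pale or turn blue.

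RT_FAP41BBL against control asked what the combined treatment changed. By edgeR's quasi-likelihood test with Benjamini-Hochberg adjustment over all 17757 genes, 35 of the 42 genes rose and 0 fell, against 5.59% of all genes higher and 2.31% lower. The median log2 fold change was 0.93 for the 42 genes and 0.01 for all genes. In 38 of the 42 every RT_FAP41BBL library lay above every control library, as in 20% of all genes. The largest rises were those of Slfn4 (log2 2.33), Mx1 (1.999), Rsad2 (1.83) and Phf11d (1.56). Without RT_FAP41BBL replicate 2 the count was 20, without control replicate 2 it was 18, and 18 genes passed whichever library was left out. Over all genes the number higher also fell, from 993 in the full fit to 385 without RT_FAP41BBL replicate 2 and 258 without control replicate 2.

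RT against control asked the same of radiotherapy alone, with the same control libraries. Here 30 of the 42 genes rose and 0 fell, against 6.57% of all genes higher and 3.05% lower, with a median log2 fold change of 0.76 for the 42 genes and -0.0019 for all genes. An unadjusted p under 0.05 was found for 40 of the 42, against 24.2% of all genes. In 38 of the 42 every RT library lay above every control library, as in 14.9% of all genes. The largest rises were those of Slfn4 (2.37), Rsad2 (1.92), Mx1 (1.61) and Phf11d (1.51). Without control replicate 2 the count was 17, and 17 genes passed whichever library was left out. Over all genes the number higher fell as well, from 1167 in the full fit to 569 without control replicate 2. With a score of muscle content (the mean log2 CPM of the 12 markers) added to the model, 0 of the 42 passed and 35 had an unadjusted p under 0.05, while their median log2 fold change was 0.97. The loss was not particular to them, since 3 of all 17757 genes were higher and 0 lower in that fit, against 1167 higher and 542 lower without the covariate. By this score every RT library lay above every library of the other groups, so radiotherapy alone and muscle content cannot be told apart in this comparison. In RT_FAP41BBL against control, where the muscle marker sums overlapped, the same covariate left 33 of the 42 past the test. In that fit 729 of all 17757 genes were higher and 198 lower, against 993 higher and 411 lower without the covariate.

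Both comparisons called 27 genes. Another 8 passed in RT_FAP41BBL and not in RT (Adar, Dtx3l, Epsti1, Ifitm3, Parp14, Slfn5, Trim21 and Znfx1), and 3 passed in RT and not in RT_FAP41BBL (Eif2ak2, Pnpt1 and Slfn9). None of these 11 passed in RT_FAP41BBL against RT, where their adjusted p-values lay between 0.161 for Epsti1 and 0.847 for Eif2ak2. The 4 genes that passed in neither were Helz2, Ifitm1, Ifitm2 and Nmi.

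**Figure D2:**
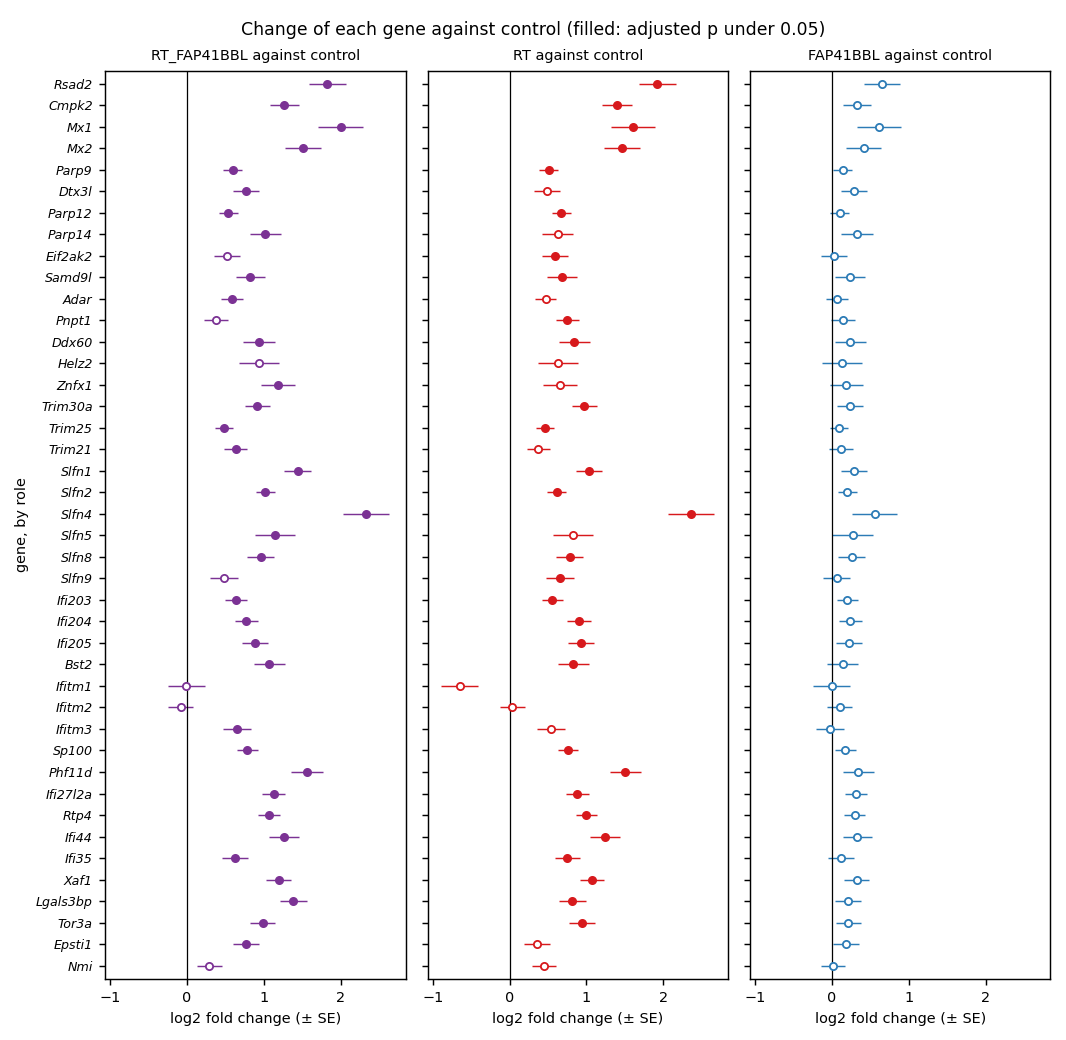
Log2 fold change of each gene against control with its standard error, for RT_FAP41BBL, RT and FAP41BBL from left to right, with filled points for adjusted p under 0.05. Filled points number 35, 30 and 0, Slfn4, Rsad2 and Mx1 lie farthest right, and Ifitm1 and Ifitm2 lie at or left of 0 or close to it.

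Rsad2 and Cmpk2 lie head to head on chromosome 12 with 12751 bases between them (GRCm39). Rsad2 encodes viperin, a radical SAM enzyme that turns CTP into a chain terminator of viral RNA synthesis, and Cmpk2 encodes a mitochondrial kinase that makes CTP precursors. Rsad2 (ENSMUSG00000020641.17, chromosome 12, 26492745 to 26506451) stood at 170.1, 242 and 133 CPM in RT_FAP41BBL, 188, 204 and 191 CPM in RT, 59.8, 103 and 78.6 CPM in FAP41BBL and 44.0, 45.6 and 64.3 CPM in control. All 6 irradiated libraries were above all 6 others, and 2 of the 3 FAP41BBL libraries were above every control library. Its level was 3.55-fold that of control in RT_FAP41BBL, log2 1.83 ± 0.24 (adjusted p = 0.00246), and 3.8-fold in RT, log2 1.92 ± 0.24 (adjusted p = 0.00148). Cmpk2 stood at 84.2, 117 and 69.9 CPM in RT_FAP41BBL, 105, 105 and 87.7 CPM in RT, 39.4, 55.6 and 46.3 CPM in FAP41BBL and 33.1, 35.2 and 44.3 CPM in control. It also rose in both, with log2 1.26 ± 0.19 (adjusted p = 0.00332) in RT_FAP41BBL and 1.40 ± 0.19 (adjusted p = 0.00157) in RT, again with no overlap between irradiated and other libraries.

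The Rsad2 promoter is shown because this gene had the smallest p of the 42 in RT against control. It runs from 250 bases before the start of the gene to 50 after it, in the RefSeq promoter table for GRCm38.p6 (chr12:26456403-26456702, minus strand), an older build than the GRCm39 of the count files. Capitals mark the ISRE letters, which are GAAA, any 2 bases and GAAA again, searched on both strands with overlaps allowed.
Rsad2: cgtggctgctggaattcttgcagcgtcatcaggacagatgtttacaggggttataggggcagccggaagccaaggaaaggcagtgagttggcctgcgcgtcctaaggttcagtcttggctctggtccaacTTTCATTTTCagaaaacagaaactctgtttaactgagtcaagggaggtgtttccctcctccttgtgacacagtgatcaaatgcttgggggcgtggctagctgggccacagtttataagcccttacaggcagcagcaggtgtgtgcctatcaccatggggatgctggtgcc
The match lies on the other strand and begins 120 bases before the start. In this window 13 of the 34 genes with a promoter in the table held the ISRE letters (38.2%), against 1079 of 27025 genes in all (3.99%). The GAS letters TTCNNNGAA were in 5 of the 34 (14.7%), against 9.55% of all genes. The genes with ISRE letters had a median log2 fold change of 0.89 in RT_FAP41BBL against control, with 10 of 13 past the test, and those without had 0.82, with 17 of 21. In RT against control the medians were 0.78, with 9 of 13 past the test, and 0.68, with 14 of 21. In RT_FAP41BBL against FAP41BBL they were 0.68, with 1 of 13 past the test, and 0.61, with 8 of 21. These differences by motif were not tested. The remaining 8 genes are not in the table, among them Mx1, Mx2 and Rtp4.

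Mx1 and Mx2 encode dynamin-like GTPases that trap viral nucleoproteins. Many inbred mouse strains carry Mx1 and Mx2 alleles that give no working protein. Mx1 stood at 124, 185 and 93.9 CPM in RT_FAP41BBL, 81.8, 102 and 123 CPM in RT, 39.2, 70.9 and 43.5 CPM in FAP41BBL and 27.4, 32.4 and 40.9 CPM in control. The irradiated libraries were all above the others, and RT_FAP41BBL replicate 2 was the highest of the 12. Mx1 rose in RT_FAP41BBL by log2 1.999 ± 0.29 (adjusted p = 0.0043) and in RT by 1.61 ± 0.29 (adjusted p = 0.00734). Mx2 stood at 64.1, 82.4 and 40.8 CPM in RT_FAP41BBL, 53.0, 69.1 and 60.0 CPM in RT, 26.9, 37.3 and 23.6 CPM in FAP41BBL and 21.1, 21.3 and 23.6 CPM in control. Here too no irradiated library overlapped the others, and no FAP41BBL library lay below the highest control library. Mx2 rose in RT_FAP41BBL by log2 1.504 ± 0.23 (adjusted p = 0.00449) and in RT by 1.46 ± 0.23 (adjusted p = 0.00372). The pair lies 72400 bases apart on chromosome 16, and reads that fit several genes equally well were not counted, so single values of such close relatives are uncertain.

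Among the ADP-ribosylation genes, Parp9 and Dtx3l encode partners that modify ubiquitin together, Parp12 a transferase that binds RNA, and Parp14 a large transferase with macrodomains. All 4 rose in RT_FAP41BBL against control, with log2 fold changes between 0.54 for Parp12 and 1.02 for Parp14. In RT against control Parp12 rose by 0.67 ± 0.12 (adjusted p = 0.00599) and Parp9 by 0.51 ± 0.12 (adjusted p = 0.0232), while Dtx3l and Parp14 had 0.49 ± 0.17 (adjusted p = 0.0979) and 0.63 ± 0.20 (adjusted p = 0.0765). Parp14 ranged over 418 to 595 CPM in RT_FAP41BBL, 329 to 422 CPM in RT, 225 to 388 CPM in FAP41BBL and 208 to 290.2 CPM in control, so that the highest FAP41BBL library, replicate 2, lay within the RT range. Each of the 4 lost its call in RT_FAP41BBL without control replicate 2, with adjusted p-values of 0.0855 for Parp9, 0.0959 for Dtx3l, 0.111 for Parp12 and 0.0703 for Parp14. The same 4 calls were lost without RT_FAP41BBL replicate 2, and all but that of Parp9 without control replicate 1. The call of Parp9 in RT was lost without RT replicate 1, RT replicate 2, control replicate 1 or control replicate 2.

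Of the genes that act on RNA, Eif2ak2 encodes PKR, the kinase that halts translation on sensing double-stranded RNA, and Adar the enzyme that edits adenosine to inosine in double-stranded RNA. Pnpt1 encodes a mitochondrial exoribonuclease, Ddx60, Helz2 and Znfx1 encode helicases, and Samd9l encodes a factor that restricts poxviruses. In RT_FAP41BBL against control 4 of the 7 rose, namely Znfx1 by log2 1.18 ± 0.22 (adjusted p = 0.00866), Ddx60 by 0.94 ± 0.21 (adjusted p = 0.0181), Samd9l by 0.82 ± 0.19 (adjusted p = 0.0234) and Adar by 0.58 ± 0.14 (adjusted p = 0.0247). In RT against control 4 of the 7 rose as well, namely Ddx60 by 0.84 ± 0.20 (adjusted p = 0.0238), Pnpt1 by 0.75 ± 0.15 (adjusted p = 0.01), Samd9l by 0.68 ± 0.19 (adjusted p = 0.0439) and Eif2ak2 by 0.59 ± 0.17 (adjusted p = 0.0445). Pnpt1 ranged over 75.6 to 95.4 CPM in RT_FAP41BBL, 94.8 to 139 CPM in RT, 68.8 to 84.3 CPM in FAP41BBL and 61.4 to 77.4 CPM in control, and it was the gene with the most negative value in RT_FAP41BBL against RT, log2 -0.38 ± 0.15 (adjusted p = 0.162). Helz2 stood at 281, 378 and 249.7 CPM in RT_FAP41BBL, 196, 229 and 311 CPM in RT, 121, 221 and 176 CPM in FAP41BBL and 119, 158 and 199 CPM in control. Its RT_FAP41BBL libraries were above the controls but the lowest RT library was not, and it missed the test with log2 0.94 ± 0.26 (adjusted p = 0.0501) in RT_FAP41BBL and 0.63 ± 0.26 (adjusted p = 0.158) in RT. Without control replicate 2 none of the 4 calls in RT_FAP41BBL held, with an adjusted p of 0.0552 for Znfx1, 0.0845 for Ddx60, 0.0911 for Samd9l and 0.111 for Adar. Those of Ddx60, Samd9l and Adar were also lost without RT_FAP41BBL replicate 2 or control replicate 1, and those of Samd9l and Adar without RT_FAP41BBL replicate 1. In RT the 4 calls were likewise lost without control replicate 2, with an adjusted p of 0.0517 for Pnpt1, 0.0929 for Ddx60, 0.128 for Samd9l and 0.138 for Eif2ak2. Those of Ddx60, Samd9l and Eif2ak2 were also lost without control replicate 1, RT replicate 2 or RT replicate 3, and those of Samd9l and Eif2ak2 without control replicate 3.

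The Ddx60 promoter is shown for its pair of ISRE matches close to the start, from the same RefSeq table (GRCm38.p6, chr8:61927837-61928136, plus strand), with the ISRE letters in capitals.
Ddx60: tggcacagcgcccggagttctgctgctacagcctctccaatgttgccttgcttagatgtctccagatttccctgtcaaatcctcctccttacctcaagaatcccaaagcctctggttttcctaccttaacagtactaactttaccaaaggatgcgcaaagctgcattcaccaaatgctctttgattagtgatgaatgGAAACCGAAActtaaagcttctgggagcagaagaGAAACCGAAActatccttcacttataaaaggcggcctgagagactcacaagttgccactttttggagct
Both matches read GAAACCGAAA on the gene's own strand and begin 53 and 19 bases before the start. Per kilobase of exon, Ddx60 was among the least abundant of the 42 genes, at 16.6 ± 3.63 CPM per kb in RT_FAP41BBL, 15.6 ± 2.701 in RT, 10.2 ± 2.699 in FAP41BBL and 8.69 ± 0.969 in control.

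Among the TRIM ubiquitin ligases, Trim30a dampens NF-kB signalling in mice, Trim25 acts in RIG-I signalling and Trim21 binds antibody-coated virus in the cytosol. Trim30a rose by log2 0.92 ± 0.17 (adjusted p = 0.0074) in RT_FAP41BBL and by 0.97 ± 0.17 (adjusted p = 0.00446) in RT, and passed whichever library was left out in both. Trim25 rose by 0.48 ± 0.11 (adjusted p = 0.0258) in RT_FAP41BBL and 0.47 ± 0.11 (adjusted p = 0.0245) in RT, and lost both calls without control replicate 2 (adjusted p = 0.137 in RT_FAP41BBL and 0.124 in RT). Both were also lost without control replicate 1. The call in RT_FAP41BBL was lost without any single RT_FAP41BBL library, and that in RT without RT replicate 2 or RT replicate 3. Trim21 stood at 50.3, 70.4 and 50.6 CPM in RT_FAP41BBL, 51.4, 45.5 and 46.1 CPM in RT, 34.9, 49.1 and 35.8 CPM in FAP41BBL and 36.6, 37.4 and 36.4 CPM in control. Its irradiated libraries were all above the controls, while FAP41BBL replicate 2 lay within the RT range. Trim21 rose in RT_FAP41BBL by 0.63 ± 0.15 (adjusted p = 0.0247), a call lost without RT_FAP41BBL replicate 2 (adjusted p = 0.113), and had 0.37 ± 0.15 (adjusted p = 0.146) in RT. That call was also lost without any single control library.

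The Schlafen genes, which restrain growth and keep T cells quiescent in mice, lie in 1 cluster on chromosome 11 and held the gene with the largest change. Slfn4, which is induced in activated mouse macrophages, stood at 240.4, 290.1 and 146 CPM in RT_FAP41BBL, 143, 271 and 281 CPM in RT, 52.2, 80.9 and 64.9 CPM in FAP41BBL and 42.1, 48.7 and 43.9 CPM in control (ENSMUSG00000000204.17, chromosome 11, 83066012 to 83081042, GRCm39). All irradiated libraries were above all others, and RT replicate 1 and RT_FAP41BBL replicate 3 were the lowest of the irradiated. Its level was 5.02-fold that of control in RT_FAP41BBL, log2 2.33 ± 0.30 (adjusted p = 0.00246), and 5.16-fold in RT, log2 2.37 ± 0.30 (adjusted p = 0.00159). Slfn1 stood at 63.5, 87.5 and 54.0 CPM in RT_FAP41BBL, 45.0, 54.9 and 55.2 CPM in RT, 25.04, 36.0 and 31.3 CPM in FAP41BBL and 25.3, 23.8 and 26.6 CPM in control. It rose by 1.44 ± 0.18 (adjusted p = 0.00232) in RT_FAP41BBL and 1.04 ± 0.17 (adjusted p = 0.00411) in RT, with no overlap between irradiated and other libraries. Slfn2, which mouse T cells need to stay at rest, stood at 139, 178 and 141 CPM in RT_FAP41BBL, 119.6, 104 and 123 CPM in RT, 81.2, 96.7 and 81.8 CPM in FAP41BBL and 82.4, 66.8 and 77.0 CPM in control. It rose by 1.02 ± 0.13 (adjusted p = 0.00232) in RT_FAP41BBL and 0.61 ± 0.12 (adjusted p = 0.00944) in RT, and its RT_FAP41BBL libraries were all above the RT libraries.

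The other Schlafen genes are long forms with a helicase domain, and their changes were smaller against their spread. Slfn5 stood at 233, 283 and 209 CPM in RT_FAP41BBL, 148, 187 and 245 CPM in RT, 79.3, 148 and 168 CPM in FAP41BBL and 90.9, 109.9 and 127 CPM in control. FAP41BBL replicate 3 lay above the lowest RT library, with replicate 2 just under it. Slfn5 rose in RT_FAP41BBL by 1.15 ± 0.26 (adjusted p = 0.0248) and had 0.83 ± 0.26 (adjusted p = 0.0756) in RT. Slfn8 stood at 150.0, 197 and 136 CPM in RT_FAP41BBL, 128, 152 and 146 CPM in RT, 81.6, 126 and 88.5 CPM in FAP41BBL and 79.6, 76.3 and 92.4 CPM in control. It rose in both, by 0.96 ± 0.17 (adjusted p = 0.00758) in RT_FAP41BBL and 0.78 ± 0.17 (adjusted p = 0.0149) in RT, with the highest FAP41BBL library just under the lowest RT library. Slfn9 stood at 173, 215 and 174 CPM in RT_FAP41BBL, 183, 259 and 194 CPM in RT, 112, 178 and 129.7 CPM in FAP41BBL and 138, 117 and 148 CPM in control. It rose in RT by 0.66 ± 0.18 (adjusted p = 0.0398) and had 0.48 ± 0.18 (adjusted p = 0.127) in RT_FAP41BBL, where FAP41BBL replicate 2 exceeded the lowest irradiated library. The calls of Slfn2 (adjusted p = 0.0581), Slfn8 (0.0695) and Slfn9 (0.153) in RT and of Slfn5 (0.0944) in RT_FAP41BBL were lost without control replicate 2. Those of Slfn5, Slfn8 and Slfn9 were also lost without control replicate 1. Leaving out RT replicate 2 (Slfn8 and Slfn9) or RT_FAP41BBL replicate 2 (Slfn5) had the same effect. The call of Slfn9 was lost without RT replicate 3 or control replicate 3 as well, and that of Slfn5 without RT_FAP41BBL replicate 1. Counts of these close relatives are uncertain for the same reason as for the Mx pair.

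The p200 genes Ifi203, Ifi204 and Ifi205 encode proteins with DNA-binding HIN domains, and Ifi204 is known as a sensor of DNA in mouse macrophages. Ifi204 stood at 279, 363 and 257 CPM in RT_FAP41BBL, 339.5, 346 and 299.8 CPM in RT, 203, 247 and 170.2 CPM in FAP41BBL and 182, 167 and 177 CPM in control. Its irradiated libraries were all above the others, and it rose by log2 0.77 ± 0.15 (adjusted p = 0.0103) in RT_FAP41BBL and 0.90 ± 0.15 (adjusted p = 0.00388) in RT. Ifi203 stood at 281, 356 and 258 CPM in RT_FAP41BBL, 281, 291 and 274 CPM in RT, 198, 264 and 201 CPM in FAP41BBL and 199, 179 and 198 CPM in control, with FAP41BBL replicate 2 above the lowest RT_FAP41BBL library. Ifi205 stood at 52.6, 67.1 and 40.7 CPM in RT_FAP41BBL, 54.0, 53.7 and 57.6 CPM in RT, 29.0, 31.7 and 40.5 CPM in FAP41BBL and 25.8, 32.4 and 28.5 CPM in control, with no overlap between irradiated libraries and the rest. Ifi203 rose by 0.64 ± 0.14 (adjusted p = 0.0158) in RT_FAP41BBL and 0.55 ± 0.14 (adjusted p = 0.0248) in RT. Ifi205 rose by 0.89 ± 0.17 (adjusted p = 0.0098) in RT_FAP41BBL and 0.93 ± 0.17 (adjusted p = 0.00587) in RT. Without control replicate 2 the calls in RT_FAP41BBL were lost for Ifi203 (adjusted p = 0.0869) and Ifi204 (0.0641), and that of Ifi203 in RT (0.11). The same calls in RT_FAP41BBL were lost without RT_FAP41BBL replicate 2. That of Ifi203 in RT was also lost without RT replicate 2, control replicate 1 or control replicate 3.

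The 4 membrane proteins differed in their calls, with 2 higher in RT_FAP41BBL and 1 in RT. Bst2 encodes tetherin, which holds budding virus at the cell surface, and Ifitm3 a protein that blocks fusion of virus in endosomes. Per kilobase of exon Ifitm3 had the highest level of the 42 genes, at 1065 ± 221 CPM per kb in RT_FAP41BBL, 984 ± 235 in RT, 666 ± 27.7 in FAP41BBL and 676 ± 104 in control, and Bst2 followed. Bst2 ranged over 584 to 990.5 CPM in RT_FAP41BBL, 525 to 782 CPM in RT, 349 to 443 CPM in FAP41BBL and 309.9 to 388 CPM in control, and rose by log2 1.07 ± 0.20 (adjusted p = 0.00933) in RT_FAP41BBL and 0.83 ± 0.20 (adjusted p = 0.0232) in RT, calls that were lost without control replicate 2 (adjusted p = 0.0637 in RT_FAP41BBL and 0.106 in RT). The call of Bst2 in RT was also lost without RT replicate 1 or control replicate 3. Ifitm3 stood at 637, 895 and 634 CPM in RT_FAP41BBL, 849, 551 and 602 CPM in RT, 437, 446 and 473 CPM in FAP41BBL and 423, 412 and 539 CPM in control. All irradiated libraries were above all others. Ifitm3 rose in RT_FAP41BBL by 0.66 ± 0.18 (adjusted p = 0.0456), a call lost without any 1 of the 6 libraries compared (adjusted p up to 0.202, without RT_FAP41BBL replicate 2), and had 0.54 ± 0.18 (adjusted p = 0.0839) in RT.

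Ifitm1 and Ifitm2, neighbours of Ifitm3 on chromosome 7, passed in no comparison. Ifitm2 stood at 63.1, 68.4 and 69.4 CPM in RT_FAP41BBL, 97.4, 55.0 and 65.3 CPM in RT, 75.7, 70.1 and 82.0 CPM in FAP41BBL and 71.0, 68.8 and 72.7 CPM in control. The groups overlapped in all but 1 comparison, in which every RT_FAP41BBL library lay below every FAP41BBL library. Its log2 fold change was -0.08 ± 0.16 (adjusted p = 0.813) in RT_FAP41BBL against control and 0.04 ± 0.16 (adjusted p = 0.925) in RT against control, the largest p of the 42 in RT. Ifitm1 stood at 12.8, 15.6 and 17.5 CPM in RT_FAP41BBL, 11.2, 6.14 and 12.2 CPM in RT, 16.8, 14.6 and 14.8 CPM in FAP41BBL and 15.4, 11.7 and 19.2 CPM in control. Its RT libraries were low, and 1 control library lay within their range. Ifitm1 had the only negative log2 fold change of the 42 in RT against control, -0.65 ± 0.24, with a 95% interval of -1.17 to -0.12 and an adjusted p of 0.117, and -0.01 ± 0.24 (adjusted p = 0.985) in RT_FAP41BBL against control. The difference between Ifitm1 and Ifitm3 was not tested.

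The 3 Ifitm promoters are shown beside that of Bst2, since the genes are neighbours of like function with different calls. They come from the same RefSeq table (GRCm38.p6): Ifitm1 at chr7:140967826-140968125, plus strand, Ifitm2 at chr7:140955912-140956211, minus strand, Ifitm3 at chr7:141010695-141010994, minus strand and Bst2 at chr8:71537423-71537722, minus strand. Capitals again mark ISRE letters.
Ifitm1: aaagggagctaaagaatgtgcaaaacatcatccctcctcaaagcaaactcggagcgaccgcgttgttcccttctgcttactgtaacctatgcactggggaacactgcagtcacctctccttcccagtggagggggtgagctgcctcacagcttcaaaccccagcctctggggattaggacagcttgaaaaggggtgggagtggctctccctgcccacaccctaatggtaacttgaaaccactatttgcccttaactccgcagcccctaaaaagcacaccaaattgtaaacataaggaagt
Ifitm2: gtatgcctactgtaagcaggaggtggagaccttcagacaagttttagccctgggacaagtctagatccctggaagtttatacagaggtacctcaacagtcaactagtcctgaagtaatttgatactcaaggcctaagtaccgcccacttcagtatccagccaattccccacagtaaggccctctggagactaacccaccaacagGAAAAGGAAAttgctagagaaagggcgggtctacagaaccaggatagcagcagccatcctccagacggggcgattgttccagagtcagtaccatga
Ifitm3: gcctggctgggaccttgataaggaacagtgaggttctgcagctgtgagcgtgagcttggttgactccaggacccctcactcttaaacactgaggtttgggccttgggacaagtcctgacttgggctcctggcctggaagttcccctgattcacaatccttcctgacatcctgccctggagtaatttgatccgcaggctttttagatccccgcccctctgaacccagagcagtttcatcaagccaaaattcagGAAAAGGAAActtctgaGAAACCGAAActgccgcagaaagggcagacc
Bst2: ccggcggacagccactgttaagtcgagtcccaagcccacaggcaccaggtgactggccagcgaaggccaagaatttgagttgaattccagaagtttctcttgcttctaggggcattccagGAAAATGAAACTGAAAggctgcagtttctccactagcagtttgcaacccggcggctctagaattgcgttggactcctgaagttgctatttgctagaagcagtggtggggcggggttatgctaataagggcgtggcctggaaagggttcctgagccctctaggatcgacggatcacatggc
The ISRE letters were not in the Ifitm1 window, began 46 bases before the start in Ifitm2, and occurred 3 and 20 bases into the gene in Ifitm3. In Bst2 a pair of overlapping matches began 130 and 124 bases before the start, beside an overlapping GAS match at 136. Ifitm3 also held a GAS match 14 bases into the gene.

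**Figure D3:**
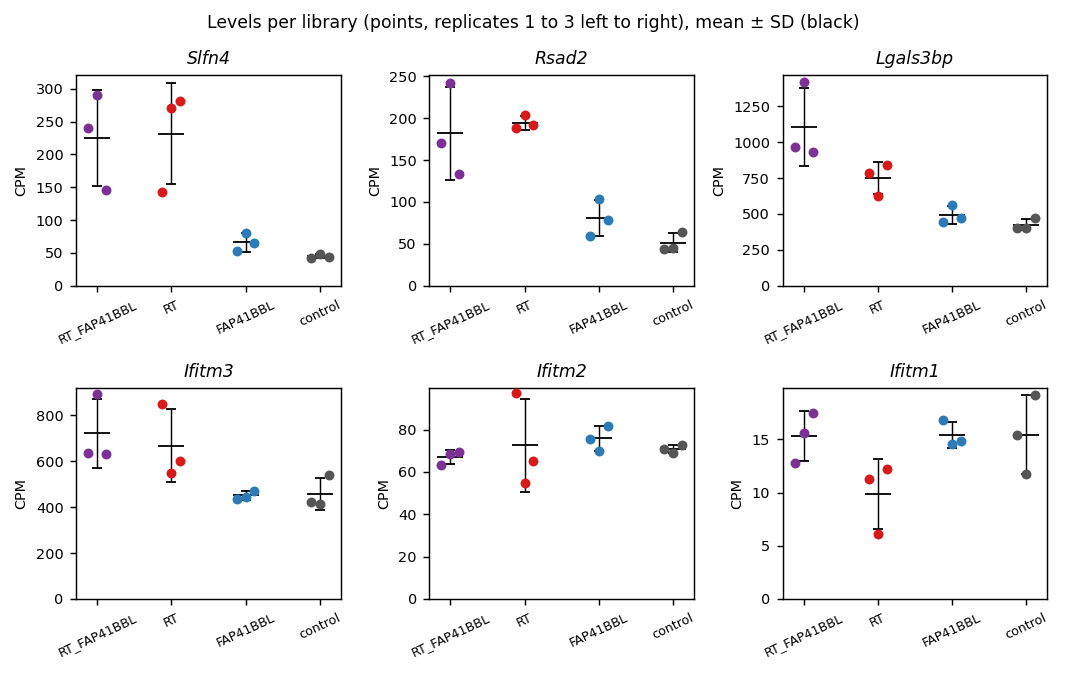
CPM of 6 genes in each library by group, with replicates as points and the mean and SD in black. Slfn4 and Rsad2 in RT_FAP41BBL and RT lie clear of FAP41BBL and control, Lgals3bp is highest in RT_FAP41BBL, Ifitm3 in RT_FAP41BBL and RT lies closer to the rest, and Ifitm2 and Ifitm1 overlap between RT_FAP41BBL and control.

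Of the nuclear proteins, Sp100 is a component of PML bodies and Phf11d carries a PHD finger. Phf11d stood at 110.2, 163 and 89.3 CPM in RT_FAP41BBL, 111, 119 and 119 CPM in RT, 51.3, 63.4 and 41.3 CPM in FAP41BBL and 44.4, 35.7 and 42.7 CPM in control. Every irradiated library was above every other library, and Phf11d rose by log2 1.56 ± 0.21 (adjusted p = 0.00246) in RT_FAP41BBL and 1.51 ± 0.21 (adjusted p = 0.00168) in RT. Sp100 rose by 0.78 ± 0.13 (adjusted p = 0.00556) in RT_FAP41BBL and 0.76 ± 0.13 (adjusted p = 0.00488) in RT, with the RT libraries within 215 to 240.2 CPM and the controls within 134 to 139 CPM. Both genes passed whichever library was left out.

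The remaining 9 genes act in varied ways, and 8 rose in RT_FAP41BBL and 7 in RT. Lgals3bp encodes a secreted glycoprotein that binds galectins, and stood at 967, 1419 and 934 CPM in RT_FAP41BBL, 783, 622 and 839 CPM in RT, 442, 559.8 and 471 CPM in FAP41BBL and 400.3, 402 and 469 CPM in control. Its RT_FAP41BBL libraries were above its RT libraries, which were above the rest. It rose by 1.38 ± 0.18 (adjusted p = 0.00232) in RT_FAP41BBL and 0.82 ± 0.17 (adjusted p = 0.0118) in RT, a call in RT that was lost without control replicate 2 (adjusted p = 0.0603). Ifi27l2a, a small mitochondrial membrane protein gene, stood at 136, 166 and 115 CPM in RT_FAP41BBL, 136, 111 and 105 CPM in RT, 82.3, 69.3 and 85.7 CPM in FAP41BBL and 68.1, 64.9 and 57.7 CPM in control. Every irradiated library was above the rest, and every FAP41BBL library above every control library. It rose by 1.13 ± 0.15 (adjusted p = 0.00245) in RT_FAP41BBL and 0.88 ± 0.15 (adjusted p = 0.00372) in RT.

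Rtp4 encodes a chaperone that brings receptors to the cell surface, Xaf1 an antagonist of the apoptosis inhibitor XIAP, and Ifi44 a protein of the interferon response. Rtp4 stood at 100.2, 127 and 92.3 CPM in RT_FAP41BBL, 113, 93.8 and 98.5 CPM in RT, 57.4, 73.2 and 56.5 CPM in FAP41BBL and 53.5, 46.0 and 52.9 CPM in control. Xaf1 stood at 124, 158 and 98.4 CPM in RT_FAP41BBL, 123, 113 and 113 CPM in RT, 64.5, 82.7 and 60.4 CPM in FAP41BBL and 53.9, 51.4 and 60.9 CPM in control. Ifi44 stood at 468, 651 and 413 CPM in RT_FAP41BBL, 509, 487 and 516 CPM in RT, 222, 349.9 and 230.0 CPM in FAP41BBL and 212, 189 and 237 CPM in control. In all 3 genes every irradiated library was above every other library. Rtp4 rose by 1.07 ± 0.14 (adjusted p = 0.00246) in RT_FAP41BBL and 1.00 ± 0.14 (adjusted p = 0.00177) in RT. Xaf1 rose by 1.19 ± 0.16 (adjusted p = 0.00246) in RT_FAP41BBL and 1.07 ± 0.16 (adjusted p = 0.00242) in RT, and Ifi44 by 1.26 ± 0.19 (adjusted p = 0.00366) in RT_FAP41BBL and 1.24 ± 0.19 (adjusted p = 0.00293) in RT. Tor3a, a torsin ATPase gene, rose by 0.98 ± 0.17 (adjusted p = 0.00549) in RT_FAP41BBL and 0.95 ± 0.17 (adjusted p = 0.00497) in RT, and in both comparisons with control these 4 genes passed whichever library was left out.

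Ifi35 and Nmi encode proteins that bind each other. Ifi35 rose by 0.62 ± 0.17 (adjusted p = 0.0405) in RT_FAP41BBL and 0.75 ± 0.17 (adjusted p = 0.0152) in RT, calls lost without control replicate 2 (adjusted p = 0.159 in RT_FAP41BBL and 0.0732 in RT). Both were also lost without control replicate 3. The call in RT_FAP41BBL was lost without control replicate 1, RT_FAP41BBL replicate 1 or RT_FAP41BBL replicate 2 as well. Nmi had 0.29 ± 0.16 (adjusted p = 0.295) in RT_FAP41BBL and 0.45 ± 0.16 (adjusted p = 0.0977) in RT, with control replicate 1 inside the range of the irradiated libraries. Epsti1 was first described in breast cancer cells grown with stromal fibroblasts, and stood at 49.1, 79.4 and 54.1 CPM in RT_FAP41BBL, 43.7, 39.4 and 53.8 CPM in RT, 43.6, 40.7 and 37.4 CPM in FAP41BBL and 37.9, 32.6 and 36.5 CPM in control. FAP41BBL replicates 1 and 2 lay within the RT range, while all irradiated libraries were above the controls. Epsti1 rose in RT_FAP41BBL by 0.77 ± 0.17 (adjusted p = 0.0173), a call lost without control replicate 2 (adjusted p = 0.0938), and had 0.36 ± 0.17 (adjusted p = 0.22) in RT. That call was also lost without RT_FAP41BBL replicate 2 or control replicate 3.

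FAP41BBL against control asked what the agonist alone changed, and 0 of the 42 genes passed in either direction. Of all genes 0% were higher and 0.00563% lower. The log2 fold change was positive for 40 of the 42 with a median of 0.21, against 0.01 for all genes, and 2 of the 42 had an unadjusted p under 0.05, against 5.17% of all genes. DESeq2 and limma-voom also called 0 of the 42. In 5 genes every FAP41BBL library lay above every control library (Mx2, Ifi27l2a, Rtp4, Slfn4 and Sp100), as in 5.7% of all genes, and in 0 genes every one lay below, as in 5.07%. The smallest p was that of Rsad2, log2 0.65 ± 0.24 with a 95% interval of 0.13 to 1.17 and an adjusted p of 0.905. Without FAP41BBL replicate 2 the median was 0.07, with 32 of 42 positive.

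RT_FAP41BBL against FAP41BBL asked what radiotherapy changed where the agonist was given in both groups, and it shares no library with RT against control. Of the 42 genes 11 rose and 0 fell, against 0.822% of all genes higher and 0.124% lower, with a median log2 fold change of 0.69. In 32 of the 42 every RT_FAP41BBL library lay above every FAP41BBL library, as in 12.3% of all genes, and in 1 gene, Ifitm2, every one lay below, as in 10.9%. Lgals3bp (1.17 ± 0.17 (adjusted p = 0.0188)), Slfn1 (1.15 ± 0.17 (adjusted p = 0.019)) and Slfn2 (0.82 ± 0.12 (adjusted p = 0.019)) had the smallest p. The others that rose were Phf11d (1.22), Slfn4 (1.77), Ifi27l2a (0.81), Rtp4 (0.77), Xaf1 (0.87), Cmpk2 (0.94), Rsad2 (1.18) and Ifi44 (0.93). All 11 also rose in both comparisons of irradiated tumours with control. The count fell to 3 without RT_FAP41BBL replicate 1 and to 0 without RT_FAP41BBL replicate 2, FAP41BBL replicate 1 or FAP41BBL replicate 3, and was 33 by DESeq2, 17 by limma-voom and 5 with only these 2 groups in the fit. Over all genes the number higher moved likewise, with 146 in the full fit, 21 without RT_FAP41BBL replicate 1, 3 without RT_FAP41BBL replicate 2, 0 without FAP41BBL replicate 1, 3 without FAP41BBL replicate 3 and 578 by DESeq2.

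Set side by side, the 2 radiotherapy comparisons without a shared library had the same sign for 41 of the 42 genes, all but Ifitm2. Across the 42 genes, which are not independent and were measured in the same libraries, Pearson's r was 0.852 and Spearman's rho 0.779. The log2 fold change, taken with its sign, was lower with the agonist than without it for 28 of the 42. Rsad2 had log2 1.18 with the agonist and 1.92 without it, and Lgals3bp 1.17 with it and 0.82 without it.

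**Figure D4:**
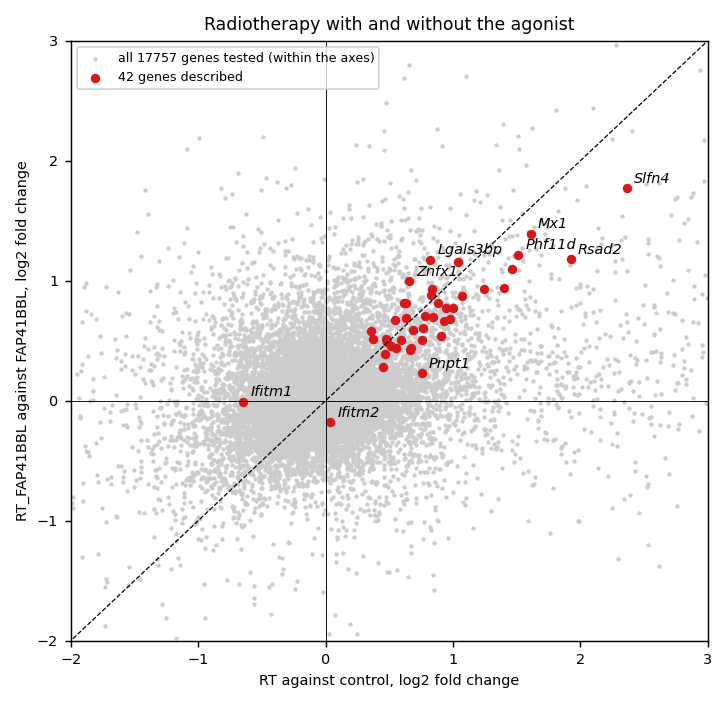
Log2 fold change of each gene in RT against control (x) and in RT_FAP41BBL against FAP41BBL (y), with the 42 genes in red over all genes tested in grey and the line of equal change dashed. All 42 but Ifitm1 and Ifitm2 lie right of and above 0, 28 of 42 have the lower signed value with the agonist, and Slfn4, Rsad2, Mx1 and Phf11d lie farthest out.

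The interaction, which is RT_FAP41BBL against FAP41BBL minus RT against control, tested this difference directly. Of the 42 genes 0 passed in either direction, against 0.0282% of all genes higher and 0.124% lower. The median was -0.13, with 28 of 42 negative, and 2 of the 42 had an unadjusted p under 0.05, against 14.1% of all genes. These 2 were Pnpt1, with log2 -0.52 ± 0.22 (adjusted p = 0.304), and Rsad2, with -0.75 ± 0.33 (adjusted p = 0.338) and a 95% interval of -1.47 to -0.02. DESeq2 and limma-voom called 0 as well. Without FAP41BBL replicate 2 the median was 0.01, with 22 of 42 positive. Without RT_FAP41BBL replicate 2 it was -0.26, with 4 positive and 7 unadjusted p under 0.05, and with the muscle covariate it was -0.32, with 11 positive and 5 unadjusted p under 0.05. The RT libraries, which enter the interaction, lay above all others in muscle score. The interaction and muscle content thus cannot be told apart either.

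RT_FAP41BBL against RT asked what the agonist added to radiotherapy. Of the 42 genes 0 passed in either direction, against 3.36% of all genes higher and 2.4% lower. The median log2 fold change was 0.08, with 29 of 42 positive, and 7 had an unadjusted p under 0.05, against 23% of all genes. In 5 genes every RT_FAP41BBL library lay above every RT library (Dtx3l, Slfn2, Ifitm1, Lgals3bp and Znfx1), as in 14.5% of all genes. The smallest p were those of Lgals3bp, 0.56 ± 0.17 (adjusted p = 0.0737), and Slfn2, 0.40 ± 0.12 (adjusted p = 0.0757), which DESeq2 called. Lgals3bp also passed without RT replicate 3 (adjusted p = 0.0474). Ifitm1 had 0.64 ± 0.24 (adjusted p = 0.137). The direction over the list moved with single libraries. Without RT_FAP41BBL replicate 2 the median was -0.07 and 14 of 42 were positive, without RT_FAP41BBL replicate 3 it was 0.20 and 36 were positive, and with the muscle covariate it was -0.09 with 15 positive. The muscle scores were 7.93 to 9.14 in RT and 4.34 to 5.33 in RT_FAP41BBL. The agonist and muscle content therefore cannot be told apart in this comparison, with or without the covariate.

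Transcripts of interferon ligands were scarce, and their part in the rises was not tested. Of 21 interferon genes, 2 passed the filter on low counts, and neither passed the test in any comparison. Ifnb1, the gene of interferon-beta, stood at 0.408, 0.509 and 0.268 CPM in RT_FAP41BBL, 0.449, 0.606 and 0.523 CPM in RT, 0.151, 0.145 and 0.145 CPM in FAP41BBL and 0.0842, 0.0257 and 0.412 CPM in control. The 6 irradiated libraries were above all FAP41BBL libraries and 2 of the 3 control libraries, while control replicate 3 lay among them. Its log2 fold change was 1.18 ± 0.63 (adjusted p = 0.286) in RT_FAP41BBL against control and 1.59 ± 0.62 (adjusted p = 0.13) in RT against control, at a level where few read pairs are counted. Ifng, the gene of interferon-gamma, stood at 2.29, 4.82 and 3.67 CPM in RT_FAP41BBL, 2.99, 0.582 and 2.19 CPM in RT, 1.81, 2.60 and 1.89 CPM in FAP41BBL and 1.5997, 1.11 and 0.879 CPM in control. Its RT_FAP41BBL libraries were all above the controls, with 1.59 ± 0.48 (adjusted p = 0.0656), while the RT libraries overlapped the controls, with 0.68 ± 0.48 (adjusted p = 0.43).

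Of 17 genes for interferon receptors and their signalling, 5 rose in RT_FAP41BBL against control and 4 in RT against control, with 0 lower in either. Usp18, the protease that brakes signalling at the type I receptor, rose by 1.36 ± 0.21 (adjusted p = 0.00449) in RT_FAP41BBL and 1.598 ± 0.21 (adjusted p = 0.00159) in RT. Stat2, a subunit of the type I interferon transcription factor, rose by 0.98 ± 0.17 (adjusted p = 0.00549) in RT_FAP41BBL and 0.72 ± 0.16 (adjusted p = 0.017) in RT. In RT_FAP41BBL against RT 2 of the 17 were higher, Ifnar2 (0.46 ± 0.10 (adjusted p = 0.0232)) and Ifngr1 (0.35 ± 0.08 (adjusted p = 0.0325)), receptor chains for type I interferon and interferon-gamma, beside 3.36% of all genes. With the muscle covariate 0 of the 17 passed in RT_FAP41BBL against RT and 0 in RT against control, while 5 did in RT_FAP41BBL against control. The loss in RT_FAP41BBL against RT was not particular to these genes. Over all 17757 genes the covariate left 0 higher and 1 lower there, against 596 higher and 426 lower without it. Of 39 tested genes in the other interferon-induced families, 32 rose in RT_FAP41BBL and 26 in RT against control, 0 in FAP41BBL against control, 13 in RT_FAP41BBL against FAP41BBL and 1 in RT_FAP41BBL against RT, with median log2 fold changes of 0.97 in RT_FAP41BBL and 0.92 in RT against control. Of all genes 5.59% were higher in RT_FAP41BBL and 6.57% in RT against control. With the muscle covariate the counts of these 39 were 32 in RT_FAP41BBL against control and 12 in RT_FAP41BBL against FAP41BBL. The count was 0 in RT against control, where 33 had an unadjusted p under 0.05. It was also 0 in RT_FAP41BBL against RT, as was the number higher over all 17757 genes. Irf7, the factor that amplifies type I interferon, rose by 1.81 ± 0.21 (adjusted p = 0.00194) in RT_FAP41BBL and 1.44 ± 0.20 (adjusted p = 0.00181) in RT. Of 14 interferon-gamma and antigen presentation genes, 2 rose in RT_FAP41BBL against control, Cd274, which encodes PD-L1 (1.55 ± 0.33 (adjusted p = 0.0197)), and Ido1, a tryptophan-degrading enzyme (1.83 ± 0.42 (adjusted p = 0.0222)), and 0 rose in RT. With the muscle covariate 1 of the 14 passed in RT_FAP41BBL against control.

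Some markers of leukocytes were higher in RT_FAP41BBL, as were the genes described here. In bulk tumours fewer cells of a type and less RNA per cell cannot be told apart. Of 4 pan-leukocyte markers, 3 rose in RT_FAP41BBL against control and 1 in RT against control, and their summed CPM was 1412 to 1681 in RT_FAP41BBL, 658 to 1140 in RT, 844 to 1054 in FAP41BBL and 729 to 860.3 in control. The ratio of the summed CPM of the 42 genes to that sum was 6.41, 7.23 and 5.15 in RT_FAP41BBL, 10.3, 13.2 and 7.90 in RT libraries, 6.14, 6.44 and 5.81 in FAP41BBL libraries and 5.86, 6.54 and 6.57 in control libraries. The RT libraries thus had more of the 42 genes for their leukocyte markers than any other library, and RT_FAP41BBL overlapped control in this ratio. Of 8 macrophage and monocyte markers 4 rose in RT_FAP41BBL and 1, Ly6c2, in RT, where its log2 fold change was 1.79. Ly6c2 is a marker of inflammatory monocytes that interferon is also known to induce. Of 7 T cell markers 1 rose in RT_FAP41BBL against control and 0 in RT, and their summed CPM was 74.3 to 105 in RT_FAP41BBL, 24.4 to 49.9 in RT, 70.9 to 86.8 in FAP41BBL and 43.1 to 75.3 in control. Of 3 NK cell markers tested 1 rose in each. NK marker sums were 12.5 to 21.2 CPM in RT_FAP41BBL, 11.8 to 13.6 in RT, 11.0 to 14.6 in FAP41BBL and 6.56 to 10.1 in control. Of 4 B cell markers 1 rose in RT_FAP41BBL and 0 in RT. Of all genes 5.59% were higher and 2.31% lower in RT_FAP41BBL against control, and 6.57% and 3.05% in RT. Of 5 dendritic cell markers 0 rose in either, and of 5 neutrophil markers 1 rose in RT_FAP41BBL and 0 in RT. Of 4 endothelial markers 1 rose in RT_FAP41BBL and 0 in RT, with sums of 271 to 316 CPM in RT_FAP41BBL, all above the 189 to 211 CPM in control. Of 5 markers of plasmacytoid dendritic cells, known as strong producers of type I interferon, 0 rose and 1 fell in RT_FAP41BBL, and 1 rose and 1 fell in RT, where the one that rose was Cox6a2, a respiratory chain subunit also made in muscle. Their summed CPM was 220.3 to 244 in RT_FAP41BBL and 214 to 236 in RT, below the 270.2 to 323 in control without overlap. Most of that sum was Tcf4, a transcription factor also made by other cells, while Siglech, a receptor that defines these cells, averaged 5.53 ± 0.318 CPM in RT_FAP41BBL, 3.27 ± 1.51 CPM in RT, 4.49 ± 1.44 CPM in FAP41BBL and 5.16 ± 0.245 CPM in control. The part of cell content in the rises was not tested.

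**Figure D5:**
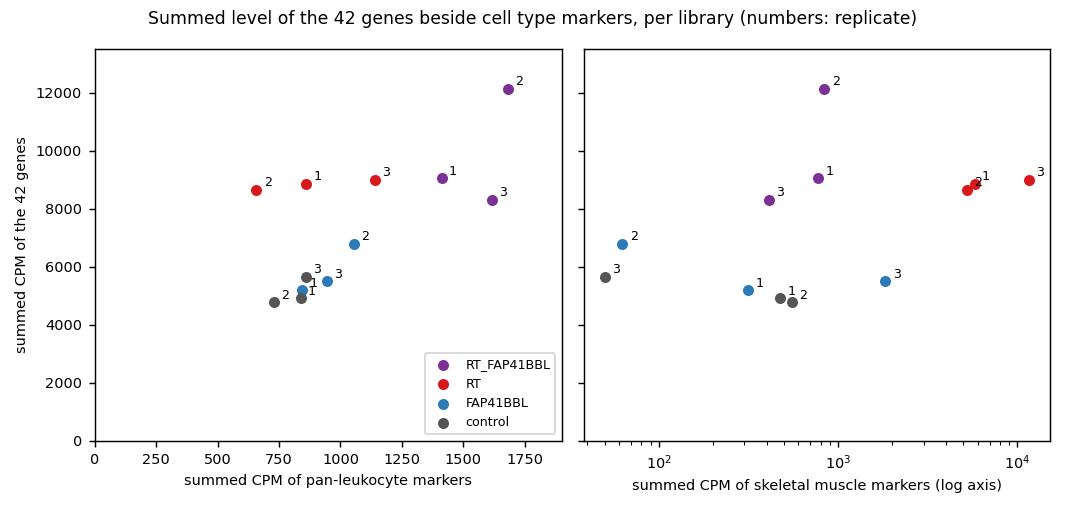
Summed CPM of the 42 genes in each library against the summed CPM of 4 pan-leukocyte markers (left) and of 12 skeletal muscle markers (right, log axis), with replicate numbers beside the points. RT libraries lie at 8655 to 9010 CPM of the 42 genes with leukocyte marker sums that overlap those of control, and they alone lie at 5208 CPM or more of muscle markers.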

How the data were processed

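Bulk tumour RNA was measured in 12 libraries, 3 in each of 4 groups taken from the treatment labels. The deposited files hold raw counts for each gene, made by the authors with featureCounts 1.6.0 over exons, by read pair and reverse strand, without reads that map to several places, on GRCm39 with GENCODE M33, per the file headers. The submitters' processing notes also list FastQC 0.11.8, STAR 2.7.9a and the packages limma and edgeR. TruSeq stranded mRNA libraries were sequenced as read pairs, per the labels' protocols.

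Symbols came from GENCODE M21 by gene identifier, for 51948 of 56884 genes (91.3%). The analysis used edgeR 4.0.16 under R 4.3.3: filterByExpr (17757 genes), TMM scaling, a 4-group model of all 12 libraries with 8 residual degrees of freedom, robust quasi-likelihood tests and Benjamini-Hochberg adjustment over all genes at 0.05. The steps were tested on simulated counts with less spread between libraries than these data and no difference in muscle content. That test does not show how the steps perform at the spread seen here. CPM uses TMM-scaled library sizes, and CPM per kb divides by exon length. The muscle score is the mean log2 CPM, with a prior count of 2, of the muscle markers. DESeq2 1.42.0 and limma 3.58.1 were among the alternatives.

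The 42 genes, the other lists and the tests were chosen with earlier results of these data known. By a written rule, values per library were given for the 8 genes of smallest and 4 of largest p in RT against control, for up to 8 genes past the test elsewhere, smallest p first, and for the Mx, Schlafen, p200 and Ifitm families, and at most 3 genes of smallest p were named per other list. Every pair of libraries within a group differed by more than sampling noise. Overlapping genes on opposite strands, such as Parp9 and Dtx3l, were kept apart by strand.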

Additional observations from a re-analysis of the deposited data

How the results depend on the processing

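The directions of the 42 genes held under every alternative in the comparisons where they passed the test, and no called value changed sign. The number higher in RT against control (30) was 0 with the muscle score as a covariate, and 17 to 28 when 1 library was left out. For RT_FAP41BBL against control (35) it was 18 to 33 when 1 library was left out. For RT_FAP41BBL against FAP41BBL (11) it was 33 by DESeq2, 17 by limma-voom, 5 with only those 2 groups in the fit and 0 to 16 when 1 library was left out. For RT_FAP41BBL against RT (0) it was 2 by DESeq2 and 0 to 1 when 1 library was left out. The number higher over all genes in RT against control (1167) was 3 with the muscle covariate and 569 to 1185 when 1 library was left out. In RT_FAP41BBL against control (993) it was 258 to 756 when 1 library was left out. The causes were not tested. Other size factors, library totals and no filter on low counts kept each count of calls within 1.5 times its value.

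Over 18 same-numbered pairs from different groups, the correlation of their deviations lay between -0.316 and 0.327, and 5 were over 0.1. Among 36 pairs with different numbers it lay between -0.292 and 0.399, and 13 were over 0.1. Pairing by number was thus not seen, though deviations from means of 3 libraries cannot exclude it. With the replicate number as a block, 36 of the 42 genes were higher in RT_FAP41BBL against control, 34 in RT against control, 15 in RT_FAP41BBL against FAP41BBL and 0 in the other comparisons.

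With 3 libraries a group, differences near the median standard error, 0.17 (log2) in the 5 comparisons of groups and 0.24 in the interaction, were not detectable. Much larger ones also went uncalled. Rsad2 had log2 0.65 in FAP41BBL against control and -0.75 in the interaction, and Mx1 had 1.39 in RT_FAP41BBL against FAP41BBL.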

Other observations

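Some of the genes lie next to each other. Parp9 and Dtx3l overlap head to head by 682 bases on chromosome 16, and their log2 fold changes in RT_FAP41BBL against control were 0.60 for Parp9 and 0.77 for Dtx3l. Ifitm2 and Ifitm1 lie 11233 bases apart on chromosome 7 and Ifitm1 and Ifitm3 39760 bases apart, with log2 fold changes in the same comparison of -0.08 for Ifitm2, -0.01 for Ifitm1 and 0.66 for Ifitm3. Of the 42 genes, 11 lie on chromosome 11, 6 of them the Schlafen genes.

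Of the summed CPM of the 42 genes, Lgals3bp held 11.3% in RT_FAP41BBL, 8.46% in RT, 8.43% in FAP41BBL and 8.29% in control, the largest of these shares being that in RT_FAP41BBL. Slfn4 held 2.29% in RT_FAP41BBL, 2.62% in RT, 1.13% in FAP41BBL and 0.878% in control. Ifitm3 held 7.34% in RT_FAP41BBL, 7.55% in RT, 7.76% in FAP41BBL and 8.97% in control. These shares are of group means and were not tested.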
